A study of Mus musculus with 18 samples.

Results

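The imprinted Snrpn cluster of mouse chromosome 7, the counterpart of the human Prader-Willi and Angelman region, was followed in sorted bone marrow B cells of mice labelled del/del or del/+ for Smchd1, the gene of a chromatin protein that was not itself measured. Its 7 genes were taken by symbol from the count tables: Ube3a, Snrpn, Snurf, Ndn, Magel2, Mkrn3 and Peg12. All 7 had a row among 25965, and 4 of the 7 (Ube3a, Ndn, Mkrn3 and Peg12) had enough reads to enter the genotype tests. Each of the 18 libraries was polyA RNA of CD45.2+ B220+ Mac1- femoral marrow cells from a C57BL/6 mouse aged 12 to 16 months. The control groups, 5 females and 4 males, were Smchd1[del/+] Vav.Cre[T/+], and the comparison groups, 5 females and 4 males, carried Smchd1 del/del with the same Vav.Cre[T/+] transgene. Thus every animal had at least 1 deleted Smchd1 allele and a Cre transgene driven in blood-forming cells, and no library came from an animal with both Smchd1 alleles intact. The question was which genes of the cluster differ in level when the second Smchd1 allele is also labelled as deleted.

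In imprinted genes one parental copy is silent. Ndn, Magel2, Mkrn3, Peg12, Snrpn and Snurf are transcribed from the paternal copy, under an imprinting centre at the Snrpn promoter that is methylated on the maternal copy, and loss of the paternal genes in humans causes Prader-Willi syndrome. Ube3a is silenced on the paternal copy in neurons and is read from both copies in most other cells. SMCHD1 is a non-canonical member of the SMC protein family, known for its part in X inactivation and in silencing of imprinted and clustered genes. Read counts per gene do not separate the parental copies, so the levels below are sums over both.

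Total counts were 9788112 to 29405395 per library. The 12 B cell markers on the list used (among them Pax5 and Cd79a) were all detected in every library, at a summed level of 11839 to 20160.3 CPM (counts scaled by library size with TMM factors). Smchd1 itself averaged 250.2 ± 16.2 CPM in the heterozygous females and 142 ± 18.4 CPM in the del/del females (SD, n = 5 each). In males the means were 294 ± 21.4 and 176 ± 15.3 CPM (n = 4 each). Its row spans the full gene, while the position of the deletion within it is not labelled.

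Male heterozygous library 2 stood apart from the other 17 for several genes of the cluster and for markers of other tissues. Of the 9 neuronal markers with a row (of 10 listed), 8 were highest of all 18 libraries in it, as were 7 of 10 stroma markers. Its summed level of erythroid markers, 1256 CPM, was also the highest of the 18, against 590 to 845 CPM in the other heterozygous males. Its summed neuronal level was 69.5 CPM, against 16.8 to 19.96 CPM in the other heterozygous males, 14.1 to 35.1 CPM in del/del males, and 6.22 to 8.55 CPM in heterozygous females. In del/del females this sum was 10.8 to 15.4 CPM and did not overlap that of the heterozygous females. Most of the sum in females was Gad1, a glutamate decarboxylase gene of inhibitory neurons, which itself rose (log2 fold change 1.06, SE 0.18, edgeR quasi-likelihood adjusted p = 0.0309, n = 5 and 5). Of the 9 markers, Gad1, Tubb3 and Syp had reads in all 10 female libraries. Syt1 had reads in 4 of them, Stmn2 and Snap25 in 1 each, and Nefl, Nefm and Rbfox3 in 0. Tubb3, a neuronal tubulin gene, was at a log2 fold change of 0.94 in females (SE 0.54, edgeR adjusted p = 0.975). Syp was at 0.01 (SE 0.27) and was not called either. In bulk RNA a change in the share of cells of a type and a change in RNA per cell cannot be told apart. Values that rest on male heterozygous library 2 are given with and without it.

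The genes fall into 2 stretches. Peg12 (ENSMUSG00000070526, minus strand, mm10 chromosome 7, 62461871 to 62464510), Mkrn3 (ENSMUSG00000070527, minus strand, 62417593 to 62420139), Magel2 (ENSMUSG00000056972, plus strand, 62376979 to 62381640) and Ndn (ENSMUSG00000033585, plus strand, 62348277 to 62349928) are single-exon genes in GENCODE M21 and have their lower coordinates within 0.114 Mb of one another. Snrpn (ENSMUSG00000000948, minus strand, 59982495 to 60140219), Snurf (ENSMUSG00000095746, minus strand, 59995449 to 60005049) and Ube3a (ENSMUSG00000025326, plus strand, 59228752 to 59306727) lie apart from them, the Ube3a start being at -3.12 Mb from that of Ndn. Snurf and Snrpn overlap, and no source used here names the strand setting of the counting. Reads of overlapping and of antisense transcripts therefore cannot be told apart.

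The promoters of the 3 genes that rose in females and of the nearly silent Magel2 and Snrpn-Snurf transcripts are shown to set what they share beside how they moved. Each is the RefSeq window (GRCm38.p6) of 250 bases before to 50 after the annotated start, written 5′ to 3′ on the strand of the gene. Capitals mark matches, on either strand, to 5 short motifs. The core bound by the activator NRF1 was searched as CGCATGCG. The core of the ETS family of transcription factors was searched as CCGGAAG. For the GC box, which proteins of the Sp1 family bind, the letters were GGGCGG. The core bound by ZFP57, a protein that guards imprints in the early embryo, was searched as TGCCGC. For the TATA box the letters were TATAAA. These motifs were chosen after the sequences were seen.
Peg12 (chr7:62464461-62464760, minus strand): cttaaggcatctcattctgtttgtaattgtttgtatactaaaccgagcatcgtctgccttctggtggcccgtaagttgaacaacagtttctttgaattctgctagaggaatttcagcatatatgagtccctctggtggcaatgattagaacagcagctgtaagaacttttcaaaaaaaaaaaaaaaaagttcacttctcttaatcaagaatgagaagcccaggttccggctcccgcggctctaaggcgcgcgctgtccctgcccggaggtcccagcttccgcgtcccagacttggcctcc
Mkrn3 (chr7:62420104-62420403, minus strand): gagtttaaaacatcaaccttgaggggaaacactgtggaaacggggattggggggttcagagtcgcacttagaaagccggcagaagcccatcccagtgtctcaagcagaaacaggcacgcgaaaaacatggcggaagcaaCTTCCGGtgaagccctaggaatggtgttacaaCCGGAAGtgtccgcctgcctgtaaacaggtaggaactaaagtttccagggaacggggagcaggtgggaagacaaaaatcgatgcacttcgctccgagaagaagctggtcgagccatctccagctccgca
Ndn (chr7:62348027-62348326, plus strand): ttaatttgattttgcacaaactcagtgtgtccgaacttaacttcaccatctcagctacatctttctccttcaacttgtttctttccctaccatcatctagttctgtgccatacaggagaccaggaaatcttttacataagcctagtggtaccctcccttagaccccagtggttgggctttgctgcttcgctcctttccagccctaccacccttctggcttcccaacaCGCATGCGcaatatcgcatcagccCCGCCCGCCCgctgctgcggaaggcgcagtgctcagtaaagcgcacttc
Magel2 (chr7:62376729-62377028, plus strand): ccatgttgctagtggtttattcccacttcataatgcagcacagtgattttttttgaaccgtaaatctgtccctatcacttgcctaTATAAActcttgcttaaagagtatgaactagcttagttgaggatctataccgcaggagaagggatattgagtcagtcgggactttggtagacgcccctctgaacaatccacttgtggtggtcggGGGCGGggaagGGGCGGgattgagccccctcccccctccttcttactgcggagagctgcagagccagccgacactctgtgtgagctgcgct
Snurf and Snrpn (chr7:60005150-60005449, minus strand): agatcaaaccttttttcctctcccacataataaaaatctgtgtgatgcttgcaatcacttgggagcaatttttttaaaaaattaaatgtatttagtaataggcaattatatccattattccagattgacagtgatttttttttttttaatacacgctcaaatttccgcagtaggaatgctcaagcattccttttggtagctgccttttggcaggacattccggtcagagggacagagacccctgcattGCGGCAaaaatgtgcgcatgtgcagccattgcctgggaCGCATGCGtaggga

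No motif searched was common to the 3 promoters. The Ndn window held the NRF1 core at position 228 of 300 and 2 overlapping GC boxes, and the Mkrn3 window held 2 ETS cores. None of the 5 motifs was in the Peg12 window. The NRF1 core was also in the Snurf and Snrpn window and is found in 1.87% of 32851 promoter windows, against 8.86% for the ETS core, 35.7% for the GC box, 11.6% for the ZFP57 core and 13.6% for the TATA box. By number of CpG pairs the windows of Mkrn3 (15), Peg12 (12), Ndn (11) and Magel2 (10) lay above the median of 7 over all windows. Such counts are common, being reached by 34.6%, 39.6%, 41.4% and 43.5% of windows. The Snurf and Snrpn window shown (7) lay at the median. RefSeq has 3 further Snrpn windows, with 4, 3 and 2 CpG pairs, each of which holds the NRF1 core and 1 of which holds the TATA box. Ube3a had 29, a count reached by 12.9% of windows. A match is only a match of letters in these windows.

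In females 3 genes of the cluster, Peg12, Mkrn3 and Ndn, rose in del/del cells, and Ube3a did not pass the test. The background was low: of 13501 genes tested, 0.244% were called higher, at a Benjamini-Hochberg adjusted p under 0.05. Earlier results of these data were known when the 7 genes were listed, so the count describes them and is no independent evidence of direction.

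Peg12, a paralogue of the Frat genes that encode binders of the kinase GSK3, had the highest level per length of the single-exon genes in females. It was at 2.65, 3.54, 3.76, 3.74 and 4.77 CPM in the heterozygous females and at 19.3, 15.9, 17.0, 19.2 and 15.8 CPM in the del/del females. The groups did not overlap. Its mean rose from 3.69 ± 0.754 to 17.4 ± 1.70 CPM (SD, n = 5 each). On the log2 scale it rose by 2.24 (SE 0.16, adjusted p = 1.62e-05 by edgeR). It was called in all 10 fits of the full female set, which varied the scaling, test, filter, covariate or block, and in all 10 that left out a library.

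Mkrn3, a makorin with RING and zinc finger domains whose loss in humans causes early puberty, had few reads in heterozygous cells. Heterozygous females held 0.279, 0.864, 0.643, 0.559 and 0.426 CPM, and del/del females 2.89, 2.32, 3.36, 3.65 and 3.25 CPM. Here too the genotypes did not overlap. The log2 fold change was 2.52 (SE 0.31, edgeR adjusted p = 0.00200, n = 5 and 5). With the neuronal marker score as a covariate, which did not overlap between the female genotypes, it was 2.45 (SE 0.50) and was not called (adjusted p = 0.170, the highest over its alternatives, of which the lowest was 1.58e-11).

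Ndn encodes necdin, a MAGE family protein of postmitotic neurons that restrains growth. It was close to silent in heterozygous females, at 0.174, 0.346, 0.0677, 0.168 and 0 CPM, which is 14 reads in all. The del/del females held 4.03, 1.60, 2.09, 1.90 and 2.30 CPM, or 259 reads, and no library overlapped. No heterozygous female library held more than 5 Ndn reads, under the filter's minimum count of 10. Ndn thus entered the female test only through the del/del libraries, the group where it is high. The log2 fold change was 4.12 (SE 0.55, edgeR adjusted p = 0.00357, n = 5 and 5). Its call was lost with the erythroid score as covariate (log2 4.44, adjusted p = 0.0506), with the neuronal score (3.17, 0.255) and with all 18 libraries in 1 fit (4.13, 0.103). The adjusted p ranged from 1.03e-10 to 0.255 over the 10 fits of the full female set. Erythroid markers summed to 707 to 1096 CPM in heterozygous and 560 to 1024 CPM in del/del females, and 0 of 12 tested were called by edgeR or DESeq2, with 8 at an unadjusted p under 0.05 and a median log2 fold change of -0.79.

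**Figure D1:**
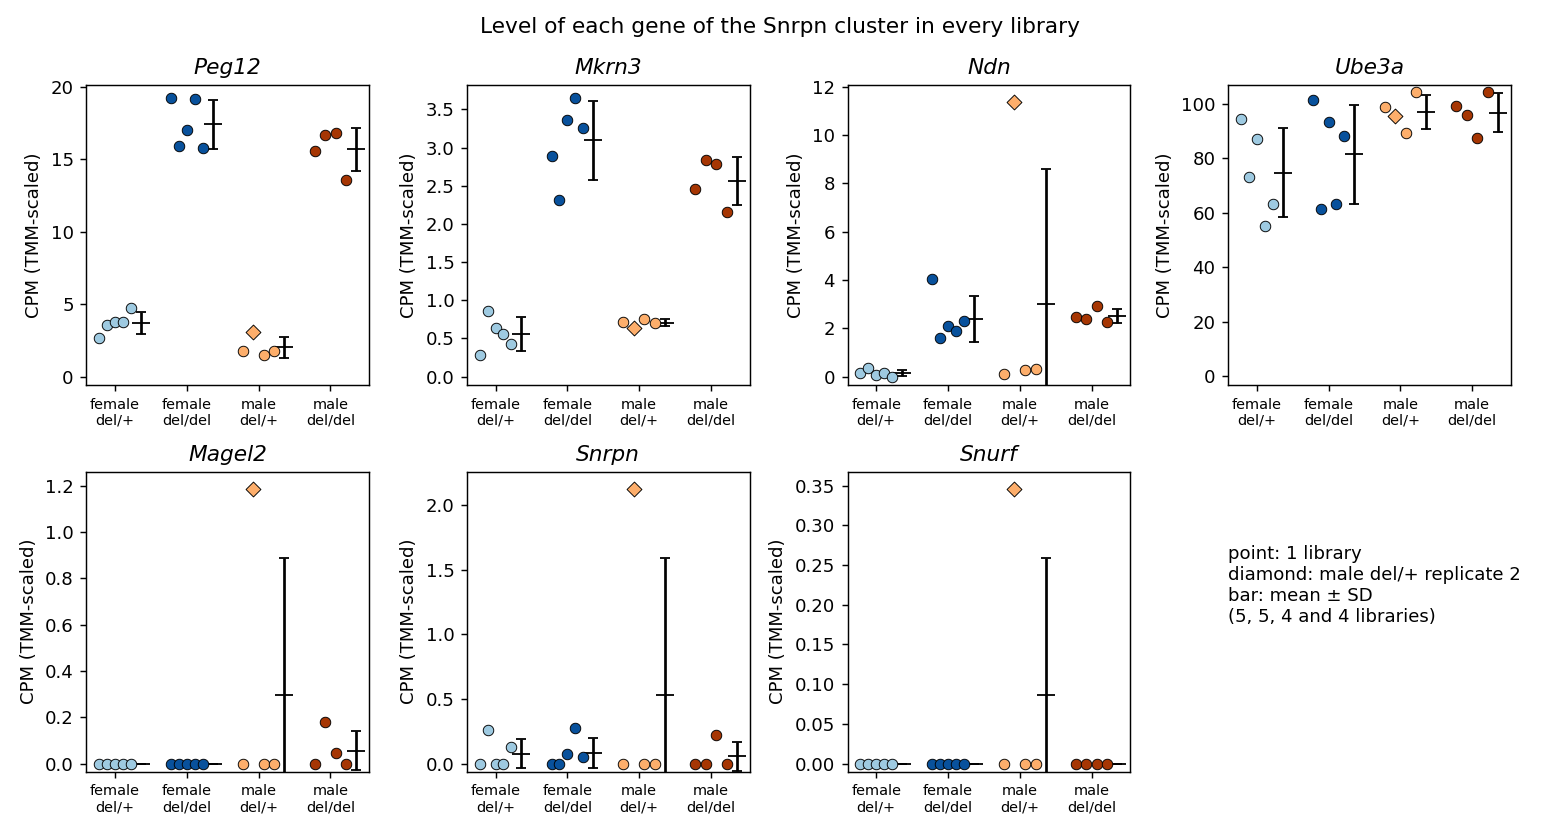
Level in CPM (vertical axes, from 0, a scale per gene) of the 7 genes in the 4 groups. Points are libraries, bars are mean ± SD, and the diamond is male heterozygous library 2. Peg12 and Mkrn3 separate by genotype in both sexes, and the diamond is the highest point for Ndn (11.4 CPM), Magel2, Snrpn and Snurf.

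Non-overlap of this kind, with every del/del library above every heterozygous one, was seen in 0.83% of the genes tested in females and 1.44% in males. In females it held for Peg12, Mkrn3 and Ndn, and in males for Peg12 and Mkrn3.

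In males Peg12 and Mkrn3 rose in del/del cells, against a background of 0.112% of 13413 genes called higher. Ndn was not called with all 8 libraries and was called without male heterozygous library 2. Peg12 was at 1.75, 3.11, 1.51 and 1.80 CPM in the heterozygous males and at 15.6, 16.7, 16.8 and 13.6 CPM in the del/del males. The highest heterozygous value was that of library 2. The log2 fold change was 2.91 (SE 0.21, edgeR adjusted p = 0.000577, n = 4 and 4), and 3.22 (SE 0.16, adjusted p = 4.96e-05) without library 2.

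Mkrn3 was even among the heterozygous males, at 0.720, 0.643, 0.754 and 0.703 CPM. The del/del males held 2.46, 2.84, 2.79 and 2.16 CPM, with no overlap. For this gene heterozygous library 2 was the lowest of its group. The log2 fold change was 1.86 (SE 0.22, edgeR adjusted p = 0.0110, n = 4 and 4). It stayed between 1.80 and 1.93 in the 8 fits that left out a library, but it no longer passed when heterozygous library 1 (adjusted p = 0.0556) or 4 (0.0564) was left out, nor without del/del library 1 (0.0543) or 3 (0.0627). With animals of nearest number as a block the value was 1.86 (adjusted p = 0.0608), and with the plasmacytoid dendritic cell score as covariate 1.65 (0.175). The adjusted p over the fits with other settings ranged from 3.63e-05 to 0.175. Markers of plasmacytoid dendritic cells, which also carry B220, summed to 2938 to 3505 CPM in heterozygous and 2899 to 3322 CPM in del/del males, and 0 of 13 were called by edgeR (2 by DESeq2, 5 at an unadjusted p under 0.05, median log2 fold change 0.39).

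Ndn in the heterozygous males was at 0.103, 11.4, 0.290 and 0.313 CPM, the 11.4 CPM (230 reads) being library 2. Del/del males held 2.46, 2.40, 2.93 and 2.26 CPM, above 3 of the 4 heterozygous libraries and below the other. Those 3 held at most 5 reads each, under the filter's minimum count of 10, so in males too Ndn passed the filter through the del/del libraries. With all libraries the log2 fold change was -0.35 (SE 1.01, edgeR adjusted p = 0.9998, n = 4 and 4). Without library 2 it was 3.30 (SE 0.34, adjusted p = 0.00655, n = 4 and 3), in a fit where 0.155% of 13521 genes were called higher. Library 2 held Ndn at 48.4 times the mean of the other heterozygous males, Peg12 at 1.85 times, Mkrn3 at 0.886 times and Ube3a at 0.979 times. What the neuronal and stroma markers of that library have to do with its Ndn was not tested.

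**Figure D2:**
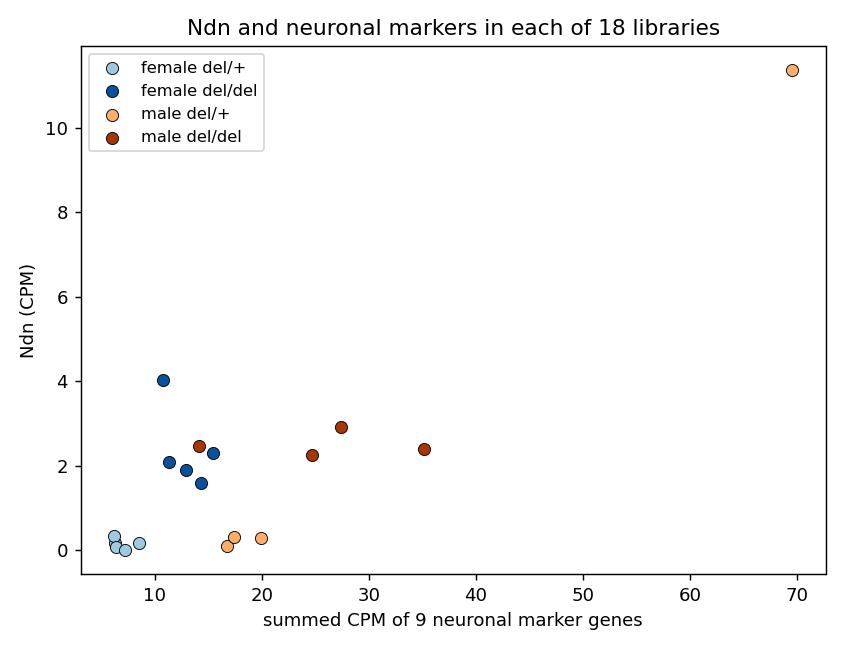
Ndn in CPM (vertical axis) against the summed CPM of 9 neuronal marker genes (horizontal axis) in each of 18 libraries, coloured by group. Male heterozygous library 2 is at the upper right, at 69.5 and 11.4 CPM, and the del/del libraries lie above the other heterozygous libraries in Ndn.

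Fitted over both sexes with sex as a term, Peg12 rose by 2.51 on the log2 scale (SE 0.15, edgeR adjusted p = 2.15e-09) and Mkrn3 by 2.23 (SE 0.20, adjusted p = 1.24e-06), in 18 libraries. Of 14017 genes tested, 0.535% were called higher. Ndn was at 1.56 (SE 0.82, adjusted p = 0.782) and, without male heterozygous library 2, at 3.80 (SE 0.36, adjusted p = 3.02e-06), where 0.784% of 14165 genes were called higher. This fit shares its libraries with the fits per sex. Markers of other cell types are given for the same fit. Of 13 plasmacytoid dendritic cell markers 1 rose, Il3ra (log2 0.55, SE 0.08, edgeR adjusted p = 0.00111), with 6 at an unadjusted p under 0.05 and a list median of 0.38. Of 12 erythroid markers 0 were called by edgeR and 2 by DESeq2, with 9 at an unadjusted p under 0.05 and a median of -0.74. Of 3 tested neuronal markers 1 rose, Gad1 (log2 0.73, SE 0.16, edgeR adjusted p = 0.0398). Tubb3 (-0.50, SE 0.69) and Syp (-0.14, SE 0.25) had negative values and were not called, and the list median was -0.14. In males alone Gad1 was at 0.35 (SE 0.21, edgeR adjusted p = 0.9998) and was not called. With the plasmacytoid dendritic cell, erythroid or neuronal score as a covariate Peg12 and Mkrn3 were called in each fit over both sexes, at an adjusted p of at most 1.91e-08 and 1.66e-05 over all 8 settings.

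Whether the genotype difference itself differed between the sexes was tested by the interaction term, which called 0 of 14017 genes (0%) with edgeR, 4 with DESeq2, and left 1.45% of genes at an unadjusted p under 0.05 in edgeR. For Ndn the male difference was lower by 4.47 on the log2 scale (-4.47, SE 1.32, adjusted p = 0.9999), and without male heterozygous library 2 the term was -0.81 (SE 0.76). Peg12 had a term of 0.65 (SE 0.26, adjusted p = 0.9999), or 0.98 (SE 0.23) without that library, toward a larger difference in males. Mkrn3 was at -0.68 (SE 0.38). No member passed the adjusted threshold. Each sex had a count table of its own, so a difference between sexes cannot be told apart here from a difference between tables.

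**Figure D3:**
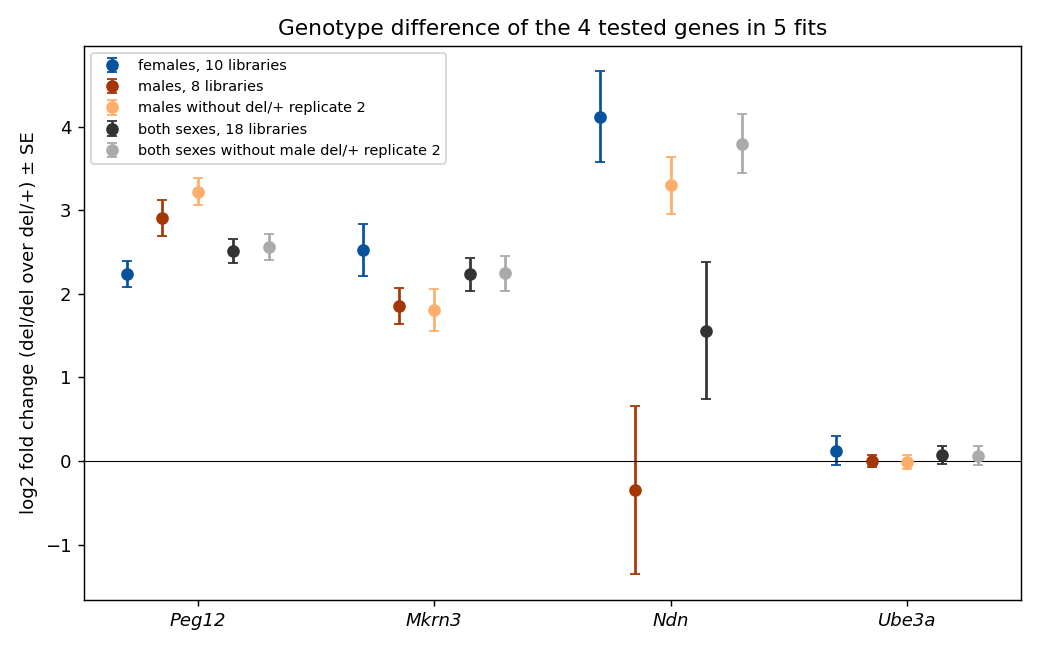
Log2 fold change of del/del over heterozygous libraries ± SE (vertical axis) for the 4 tested genes in 5 fits. Peg12 and Mkrn3 are above 0 in each, Ndn in males is at -0.35 with and 3.30 without heterozygous library 2, and Ube3a lies near 0.

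Per kilobase of the row's span, which compares levels between genes, Peg12 was the highest of the single-exon genes in del/del cells. It stood at 6.61 ± 0.642 CPM per kb in females and 5.94 ± 0.567 in males. Ndn (1.44 ± 0.577 and 1.52 ± 0.175) and Mkrn3 (1.22 ± 0.201 and 1.01 ± 0.126) followed, and in females their spreads overlap. The order of those 2 turns with the length used: GENCODE M21 gives Ndn an exon of 3694 bases against 1652 in its row, which puts Ndn at 0.645 ± 0.258 CPM per kb in del/del females and 0.680 ± 0.0782 in del/del males, below Mkrn3 in both. The Ndn reads are those of the row of 1652 bases, and the longer exon comes from an annotation with another span. In heterozygous females Peg12 was at 1.40 ± 0.286, Mkrn3 at 0.218 ± 0.0870 and Ndn at 0.0915 ± 0.0792 CPM per kb (SD, n = 5 each; 4 each in males).

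Ube3a, a HECT ubiquitin ligase whose maternal loss in humans causes Angelman syndrome, had the most reads of the cluster. Heterozygous females had 94.5, 73.0, 87.1, 55.1 and 63.4 CPM and del/del females 102, 61.3, 93.2, 63.1 and 88.2 CPM. In males the values were 98.7, 95.4, 89.4 and 104 CPM against 99.2, 96.0, 87.3 and 104 CPM. Groups overlapped in both sexes. The log2 fold change was 0.12 (SE 0.17, edgeR adjusted p = 0.975) in females and -0.00 (SE 0.07, adjusted p = 0.9998) in males, and its sign changed under some settings.

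Magel2, Snrpn and Snurf were at or near 0 reads and entered no test across genes. Magel2, which encodes a MAGE protein of the retromer-linked WASH machinery, had 0 reads in all 10 female libraries, which allows up to 0.0270 CPM in the heterozygous and 0.0269 CPM in the del/del group (3 reads over the group, counting error only). Heterozygous males held 0, 24, 0 and 0 reads and del/del males 0, 4, 1 and 0. Both sides of the male comparison overlapped (exact permutation test of mean CPM, two-sided, p = 1). Without ties an exact permutation test of 4 against 4 could reach p = 0.0286. Most male libraries were tied at 0 for Magel2, so the test could not have passed and cannot decide. With heterozygous library 2 left out, the exact permutation test gave p = 0.429 (two-sided, n = 4 and 3). Most libraries were still tied at 0 there, so that test cannot decide either.

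Snrpn, which encodes SmN, a neuronal form of the Sm core protein of splicing particles, had 0, 3, 0, 0 and 3 reads in heterozygous and 0, 0, 2, 6 and 1 reads in del/del females. Males held 0, 43, 0 and 0 reads in heterozygous and 0, 0, 5 and 0 in del/del libraries. The 43 reads were again in heterozygous library 2. The genotypes overlapped in both sexes (exact permutation test, two-sided, p = 1 in each). In females 5 against 5 could reach 0.00794. Most male libraries were tied at 0, so the male test could not have passed and cannot decide. Snurf, an upstream reading frame on the same transcript, had reads only in male heterozygous library 2 (7). Without it the heterozygous males had 0 reads of Magel2, Snrpn and Snurf, which allows up to 0.0750 CPM.

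Around the cluster, within 5 Mb of its outermost members, 54 other genes had a row. In females 29 were tested, 1 rose, 0 fell, and the median log2 fold change was 0.02, against -0.00 over all genes. In males 28 were tested and 1 rose, with a median of 0.03. The gene was Tjp1 in both, the gene of a tight junction scaffold protein, on the minus strand. Its lower coordinate lies 2.95 Mb after that of Ndn. Its log2 fold change was 3.73 (SE 0.37, edgeR adjusted p = 0.000358) in females and 2.15 (SE 0.29, edgeR adjusted p = 0.0226) in males. Over both sexes Fam189a1 rose as well (log2 1.17, SE 0.25, adjusted p = 0.0307). Between Ube3a and Ndn, Gm7367 was not called in females (-0.16, SE 0.17, edgeR adjusted p = 0.975) or in males (-0.23, SE 0.09, adjusted p = 0.9998). Ube2nl, tested there in females but not in males, was not called (-0.16, SE 0.29). Of 14 other transcripts listed for the imprinted domain only 2 had a row under the symbol used, and 1, Atp10a, was tested. Atp10a was at -0.13 (SE 0.13) in females and -0.23 (SE 0.12) in males and was not called in either.

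**Figure D4:**
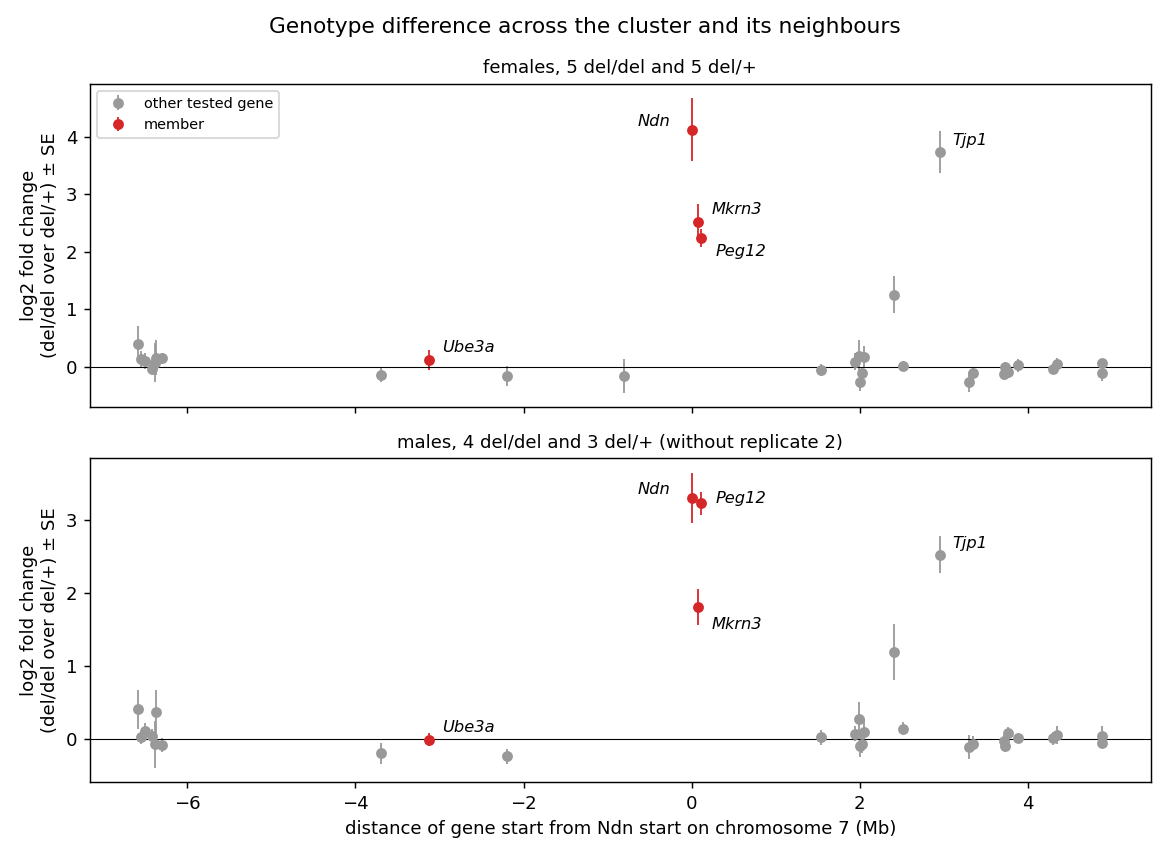
Log2 fold change ± SE (vertical axes) of each tested gene against the distance of its start from the Ndn start in Mb (horizontal axis), in females and in males without heterozygous library 2. Start here is the lower coordinate of the gene on either strand. Ndn, Mkrn3, Peg12 and Tjp1 stand above the other genes of the window, whose median was 0.02 in females.

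Apart from Smchd1, 0 of 58 tested genes on 7 lists of partners and related proteins were called over both sexes by edgeR (3 at an unadjusted p under 0.05) and 0 by DESeq2. In females the counts were also 0, 3 and 0, and in males 0, 1 and 0. Among 12 Sm core and U1 particle genes 0 were called in the fit over both sexes (median -0.08), and the 2 of smallest p were Snrpa1 (-0.09, SE 0.06) and Snrpd3 (-0.12, SE 0.09). Of 15 listed MAGE family symbols, which include synonyms of a gene, 13 had a row and 6 were tested. Of these 0 were called, with Mageh1 at 0.46 (SE 0.19) and Ndnl2 at 0.06 (SE 0.05). Of 10 listed partners of MAGEL2 only 5 had a row under the symbol used, 3 retromer subunits with Trim27 and Usp7 and no subunit of the WASH complex. Among these 5, Trim27 was at -0.04 (SE 0.05) and Vps35 at -0.04 (SE 0.06), and 0 were called. The other makorins, Mkrn1 (-0.03, SE 0.05) and Mkrn2 (-0.03, SE 0.05), were not called. In the Frat and GSK3 axis 0 of 9 were called, with Btrc at -0.14 (SE 0.08) and Csnk1a1 at -0.09 (SE 0.06). Among 11 partners of UBE3A and related ligases 0 were called, Herc1 being at 0.09 (SE 0.08) and Herc2 at 0.07 (SE 0.07). Of 14 tested factors that keep imprints 1 was called, Smchd1 itself (lower, log2 -0.78, SE 0.06, edgeR adjusted p = 2.58e-07). The median over all 14017 genes was -0.00.

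The patterns most like those of the members were sought among 14016 genes, by the root mean square difference of log2 CPM relative to the heterozygous mean of the same sex. Over 18 libraries the 3 nearest to Peg12 were Jag1 (0.54), 2410018L13Rik (0.58) and Gm17566 (0.62), and those nearest to Mkrn3 were Dmrt2 (0.53), Pax9 (0.56) and Gm17566 (0.59). Nearest to Ndn were Elavl2 (0.69), Id4 (0.73) and Pcdh17 (0.75), and over the 17 libraries without male heterozygous library 2 Tjp1 (0.52), Prox1 (0.59) and Isl1 (0.65). Without that library the nearest to Peg12 were Gnai1 (0.49), Jag1 (0.53) and 5730507C01Rik (0.59), and to Mkrn3 Pclo (0.47), Nbea (0.54) and Dmrt2 (0.55). Peg12 and Mkrn3 differed from each other by 0.66 over 18 libraries and by 0.76 over 17. Ube3a lay closest to Tbc1d8b (0.09), Vps13a (0.09) and Pank3 (0.10), the last being Myo5a (0.10) without that library. These libraries share their depth and scaling, so the distances are descriptions.

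The authors' deposited table lists Peg12, Mkrn3, Ndn and Ube3a in each sex and none of the other members. In the authors' deposited table the female log2 fold changes were 2.25 for Peg12 (FDR 1.59e-05), 2.54 for Mkrn3 (FDR 0.00198) and 4.14 for Ndn (FDR 0.00354), and the male ones 2.91 (FDR 0.000414), 1.86 (FDR 0.0109) and -0.35 (FDR 0.9998).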

How the data were processed

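Raw read counts per gene for 18 libraries were deposited by the authors, 1 table per sex. The submitters' processing notes name TopHat, Trim Galore, FastQC, bcl2fastq and edgeR 3.32.1, with builds mm10 and GRCm38. For the counting program, the annotation release and strandedness, nothing was given in the sources used here. Per the file headers, the authors also deposited log2 fold changes with log2 CPM, an F score, a p-value and an FDR for each gene, quoted only as the authors' table. The 4 columns of group means deposited by the authors (mean signal per genotype) were not used. Of 25965 rows, 56 had no gene identifier and at most 0.0846% of a library's counts, and stayed in the fits. Of 25909 identifiers, 24990 were found in GENCODE M21, which has other spans for Ube3a, Snrpn, Ndn and Magel2 and lacks that of Snurf.

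Counts were tested in R 4.3.3 with edgeR 4.0.16 (filterByExpr with minimum count 10 and total 15, TMM, quasi-likelihood test, Benjamini-Hochberg over all tested genes). SE is the size of the log2 fold change over the square root of F. Sexes were fitted apart, then together with sex as a term, and for the interaction. Untested members were compared by exact permutation of CPM. Alternatives were RLE scaling, no filter, DESeq2 1.42.0, voom in limma 3.58.1, marker scores as covariates, a shared fit, a block and leaving out each library. The neuronal covariate, the GENCODE length per kb, and the permutation and pattern results without male heterozygous library 2, were added after seeing the data. On simulated data for the female comparison, 95% of genes changed by 2 on the log2 scale and 67% of those changed by 1 were recovered. That was over 13377 genes, with 8 false calls. For the male comparison the shares were 98% and 73% over 13315 genes, with 12 false calls. The changed genes were drawn at random from all that passed the filter, so the shares are not those of genes with few reads.

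Members, lists and tests were chosen with earlier results of these data known. Named genes were all members, called genes within 5 Mb, up to 2 of smallest p per list (1 is not reported here) and the 3 nearest patterns. Gm7367, Ube2nl and the neuronal markers named singly were chosen after their values were seen. Libraries are numbered in accession order. Labels state no pairs: deviations of animals of nearest number correlated by over 0.1 in 4 of 4 male and 3 of 5 female pairs, so the block is given beside male results it ends. Each library has its own animal number. RefSeq promoter windows matched all 7 members by symbol.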

Additional observations from a re-analysis of the deposited data

Results flagged for a closer look

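Dixon's test marked 7 single libraries as far from the others of their group, where chance marks about 1 in 20 groups of normally spread values. For 4 of the 7 (Magel2, Snrpn and Snurf in heterozygous males, Snrpn in del/del males) all other libraries of the group were at 0, so the measure is 1 whatever the count and the mark carries no weight. Male heterozygous library 2 was marked for 4 genes: Ndn at 11.4 CPM (next 0.313), Magel2 at 1.19 CPM, Snrpn at 2.13 CPM and Snurf at 0.346 CPM (next 0 in each). Female del/del library 1 was marked for Ndn at 4.03 CPM (next 2.30). Female del/del library 4 was marked for Snrpn at 0.277 CPM (6 reads), and male del/del library 3 for Snrpn at 0.222 CPM (5 reads). What sets these libraries apart was not tested.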

How the results depend on the processing

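Peg12 kept its direction and its call in every fit run per sex and over both sexes. The female count of 34 called genes was 92 with DESeq2, 14 with the erythroid score, 14 with the neuronal score (added after seeing the data) and 58 with all 18 libraries. The male count of 16 was 49 with DESeq2, 5 with the plasmacytoid dendritic cell score and 5 to 22 with a library left out, the cause not tested. Over both sexes 78 calls became 141 with DESeq2 and 49 with the plasmacytoid dendritic cell score, and the interaction count of 0 became 4 with DESeq2. Members called higher fell from 3 to 1 in females with the neuronal score, which contains the called gene Gad1 and did not overlap between female genotypes. In males they went from 2 to 1 with the plasmacytoid dendritic cell score and with the replicate block (nearest animal numbers), and were 1 to 3 with a library left out. In females the replicate block gave 23 calls, and ended no member's call. Male Ndn turned positive with voom (1.61), the erythroid (2.74), plasmacytoid dendritic cell (0.73) and neuronal (1.98) scores and the replicate block (1.27), and ranged from -0.74 to 3.30 (the latter without male heterozygous library 2) with a library left out. Over both sexes Ndn was called with voom (adjusted p = 0.0456), the erythroid score (0.0396), the neuronal score (0.000372) and without male heterozygous library 2. DESeq2 gave no adjusted p for Ndn in males, over both sexes or for the interaction. Ube3a, not called anywhere, changed sign in females with the erythroid (-0.12), plasmacytoid dendritic cell (-0.081) and neuronal (-0.49) scores, in males with the plasmacytoid dendritic cell score (0.066) and between -0.045 and 0.044 with a library left out, and over both sexes with the erythroid (-0.014) and plasmacytoid dendritic cell (-0.070) scores. Without male heterozygous library 2 the del/del minus heterozygous difference turned to 0.0555 CPM for Magel2 and 0.0554 CPM for Snrpn, and none could be had for Snurf. Depth limits Magel2, Snrpn and Snurf, which hold a few reads or none.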
